A study of Homo sapiens with 2 samples.

Results

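Aminoacyl-tRNA synthetases join each amino acid to its transfer RNA (tRNA), and the loaded tRNA then delivers that amino acid to the ribosome. Human cells keep largely separate sets of these enzymes for translation in the cytosol and in mitochondria, all encoded in the nucleus. The mitochondrial enzymes are made in the cytosol and imported, while several cytosolic enzymes sit together in a multisynthetase complex. The genes described here are the 35 synthetase genes given by symbol, found by gene ID among the 57820 gene IDs of the count tables. They comprise 19 genes for cytosolic enzymes and 16 for mitochondrial enzymes, whose symbols end in 2. GARS1 and KARS1, counted with the cytosolic genes, encode the glycyl- and lysyl-tRNA synthetases of both compartments.

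Messenger RNA was sequenced from HEK293T cells, an established line from human embryonic kidney, in 2 libraries. For 1 the cells received a control siRNA (the control library), and for the other an siRNA against SRα (the SRα library). SRα, encoded by SRPRA, is a subunit of the endoplasmic reticulum receptor for the signal recognition particle. The labels name no transgene, time point or other agent, and with 1 library per group the difference has no replicate check and no test was made. Every interval below is a 95% counting interval, and since reads carried no molecular identifiers it covers counting error only.

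The control library held 2445200 gene reads and the SRα library 3896721. SRPRA, the gene targeted, was at 205 CPM (reads scaled to library size) in the control library and 117 in the SRα library, a ratio of 0.570 (0.501 to 0.648). Of 8 genes taken as markers of this line, 7 were found by symbol and all 7 were measured, though PAX2 had only 1 and 7 reads. Of 5 markers of blood, liver and tubule cells found, 4 had no read and ALB had 0 and 1. Here measured means an average over the pair of libraries of 1 CPM or more, which 12747 genes reached.

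The synthetase messages were close to equal in the 2 libraries in both compartments. The 18 measured cytosolic genes held 20388 reads in the control library and 32930 in the SRα library, or 0.834% (0.822 to 0.845) and 0.845% (0.836 to 0.854) of gene reads. The 15 measured mitochondrial genes held 3247 and 5215 reads, or 0.133% (0.128 to 0.137) and 0.134% (0.130 to 0.138). Scaled to library size, summed cytosolic reads had a log2 ratio, SRα siRNA over control siRNA, of 0.06 (0.03 to 0.08), and summed mitochondrial reads had 0.05 (-0.02 to 0.11). The difference of these log2 ratios, mitochondrial minus cytosolic, was -0.01 (-0.08 to 0.06), an interval that leaves out differences beyond 0.08 in either direction. The mitochondrial genes took 13.7% of all synthetase reads in both libraries.

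Per gene, the medians of the compartments were close, with a difference of -0.03, mitochondrial minus cytosolic. No interval was computed for this difference. The median log2 ratio was 0.04 over cytosolic genes, with 11 higher and 7 lower in the SRα library, and 0.01 over mitochondrial genes, with 8 higher and 7 lower. Over all measured genes the median was 0.01 and 48.6% were lower. All 18 cytosolic genes but only 7 mitochondrial ones reached 50 CPM, and those 7 had a median of 0.06, above the cytosolic one. Over the 4007 genes of at least 50 CPM the median was 0.04, 40.1% were lower and summed reads had 0.04. The cytosolic values lay close to these, although those 4007 genes had a median of only 272 and 430 reads. The cytosolic ratios ran from -0.27 to 0.24 and the mitochondrial ratios from -0.27 to 0.30, so the groups overlapped over nearly their whole range. Median GC content was 47.7% and 50.8%. Mitochondrial messages were read less, with a median of 116 and 170 reads against 984.5 and 1606 for cytosolic ones. The interval of a cytosolic gene reached a median of 0.12 to either side of its log2 ratio, and that of a mitochondrial gene 0.36.

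**Figure D1:**
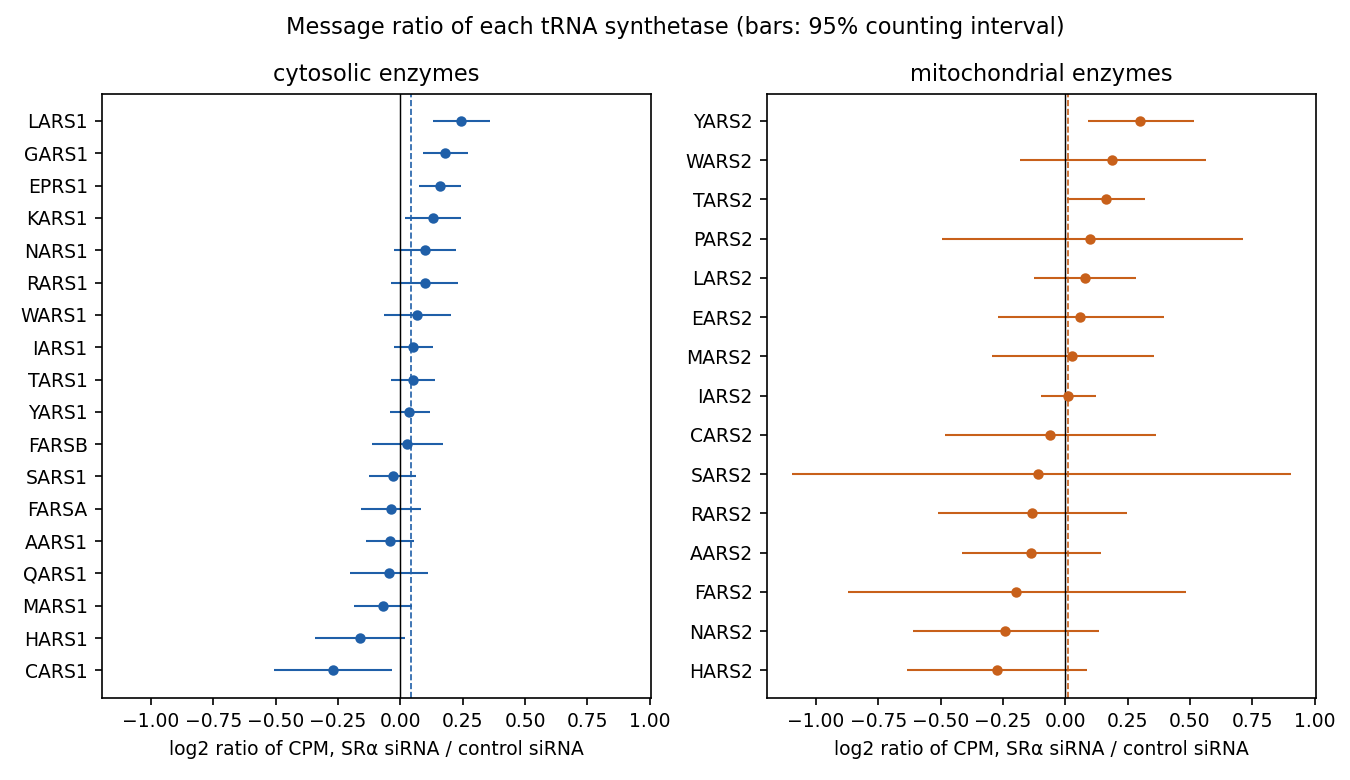
Log2 ratio of CPM (SRα siRNA over control siRNA, x axis) for 18 measured cytosolic and 15 measured mitochondrial synthetase genes, with 95% counting intervals as bars and the median of each group as a dashed line. Most intervals include 0, and the highest ratios are those of YARS2 at 0.30 and LARS1 at 0.24.

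Few members lay apart from equal levels. The counting interval was above 0 for 6 of 33 measured members (LARS1, GARS1, EPRS1, KARS1, YARS2 and TARS2) and below 0 for CARS1 alone. Over all measured genes 5.46% had an interval above 0 and 3.39% below, but most of those genes were read less than the synthetases. Among genes of at least 50 CPM, the shares were 11.7% above and 4.89% below, beside 6 and 1 of 25 synthetases of at least 50 CPM. Intervals narrow with more reads, and the cytosolic synthetases had a median of 984.5 in the control library against 272 for those genes. At a fixed size of 1.2-fold, YARS2 was the only member that much higher, and CARS1 and HARS2 were that much lower. Over all measured genes 17.5% were at least 1.2-fold higher and 18.4% lower, and among genes of at least 50 CPM the shares were 5.24% and 2.92%, beside 1 and 1 of the 25 synthetases. Counts of 1 gene are too small to set against these shares.

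**Figure D2:**
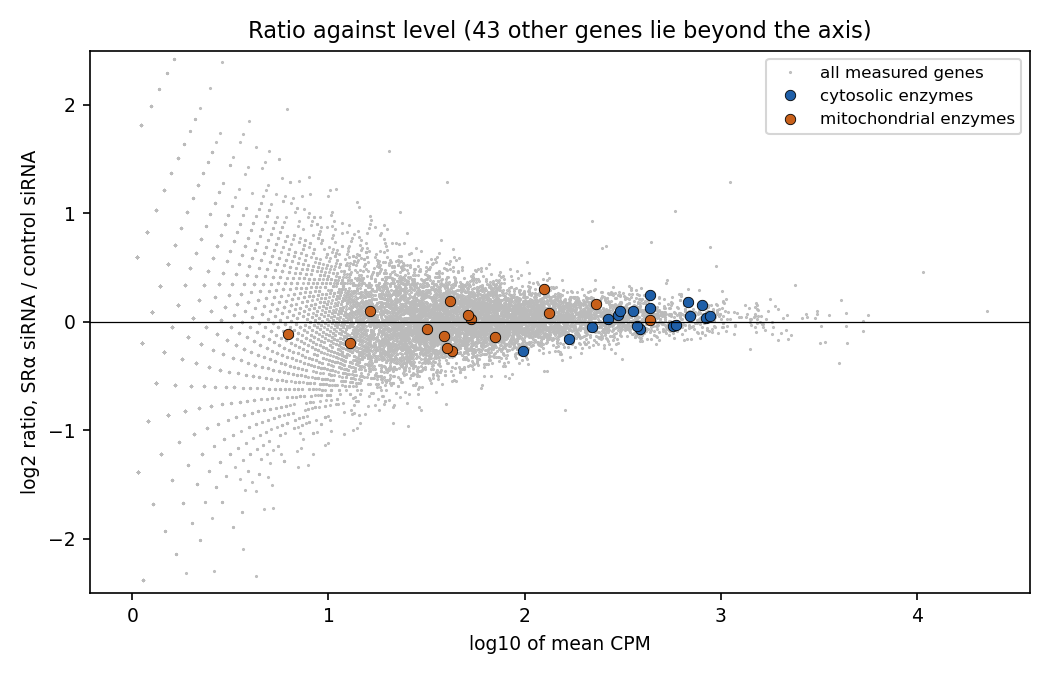
Log2 ratio (SRα siRNA over control siRNA, y axis) against the log10 of mean CPM (x axis) for all 12747 measured genes in grey, with cytosolic synthetases in blue and mitochondrial ones in orange; 43 other genes lie beyond the y axis. The synthetases sit inside the cloud of other genes, and the mitochondrial ones lie mostly further left, where the cloud is wider.

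Of the cytosolic enzymes, those of leucine, glycine, glutamate with proline, and lysine had the highest ratios. LARS1 (ENSG00000133706), the leucyl-tRNA synthetase, which also senses leucine for the growth kinase mTORC1, had 985 reads in the control library and 1813 in the SRα library, or 398 and 471 CPM. Its level was 1.18 times that of the control (1.10 to 1.28), the highest ratio of a cytosolic member. GARS1 (ENSG00000106105) had 1573 and 2769 reads, or 635 and 720 CPM, a ratio of 1.13 (1.06 to 1.21). EPRS1 (ENSG00000136628) encodes a single chain that charges both glutamate and proline tRNAs. It had 756 and 844 CPM, a ratio of 1.12 (1.05 to 1.18). KARS1 (ENSG00000065427) had 416 and 456 CPM, a ratio of 1.10 (1.01 to 1.18). Each of these 4 was higher in the SRα library by more than counting error, with no replicate to show how far 2 cultures of 1 kind differ. With library totals in place of edgeR's trimmed mean of M-values (TMM) factors, the KARS1 interval included 0.

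CARS1 (ENSG00000110619), the cysteinyl-tRNA synthetase, had the lowest ratio of the cytosolic genes. It had 265 and 341 reads, or 107 and 88.6 CPM, which is a ratio of 0.828 (0.703 to 0.976). After removal of the trend of ratios with GC content over all measured genes, or thinning of the deeper library, its interval included 0. HARS1, for histidine, was next at 439 and 610 reads, a ratio of 0.894 (0.790 to 1.013). The other 12 measured cytosolic genes had log2 ratios between -0.07 (MARS1, for methionine) and 0.10 (NARS1 and RARS1, for asparagine and arginine), and every interval included 0, though that of YARS1 lay above 0 with the GC trend removed. Between these lay QARS1 at -0.05, AARS1 at -0.04, FARSA at -0.04, SARS1 at -0.03, FARSB at 0.03, YARS1 at 0.04, TARS1 at 0.05, IARS1 at 0.05 and WARS1 at 0.07. MARS1 shares 12.4% of its exonic bases with ARHGAP9 and DDIT3 on the other strand, and WARS1 10.6% with WDR25 and AL157871.4. Because the strand setting of the counting is not given in the sources used here, reads from such stretches cannot be assigned with certainty.

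Phenylalanyl-tRNA synthetase is built from equal numbers of the subunits encoded by FARSA and FARSB. FARSA had 938 and 1420 reads and FARSB 649 and 1028. Per kb of exons FARSA stood at 156 and 152 CPM and FARSB at 77.8 and 79.3, so FARSA was 1.91 times FARSB per length in the SRα library and higher by nearly the same factor in the control library. The difference of their log2 ratios, FARSB minus FARSA, was 0.07 (-0.12 to 0.25), within counting error.

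Among mitochondrial enzymes, those of tyrosine and threonine had intervals above 0. YARS2 (ENSG00000139131), the tyrosyl-tRNA synthetase, had 280 reads in the control library and 536 in the SRα library, or 113 and 139 CPM. Its ratio of 1.23 (1.06 to 1.43) was the highest of all 33 measured members. TARS2 (ENSG00000143374), for threonine, had 538 and 936 reads, or 217 and 243 CPM, which is a ratio of 1.12 (1.01 to 1.25). The TARS2 interval included 0 with library totals and after thinning. IARS2, for isoleucine, was the most read mitochondrial member, with 1079 and 1691 reads, and at 436 and 439 CPM it was nearly level, at 1.01 (0.934 to 1.09).

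The remaining mitochondrial genes had intervals that included 0. WARS2 (tryptophan) had a log2 ratio of 0.19 from 96 and 170 reads, PARS2 (proline) 0.10 from 39 and 65, LARS2 (leucine) 0.08 from 322 and 528, EARS2 (glutamate) 0.06 from 124 and 201 and MARS2 (methionine) 0.03 from 130 and 206. On the lower side CARS2 (cysteine) had -0.06, SARS2 (serine) -0.11, RARS2 (arginine) -0.13, AARS2 (alanine) -0.14, FARS2 (phenylalanine) -0.20, NARS2 (asparagine) -0.24 and HARS2 (histidine) -0.27. The HARS2 interval, from 116 and 149 reads, ran from -0.63 to 0.09, and the LARS2 interval from -0.13 to 0.28. Differences inside such intervals were not detectable at this depth. SARS2 had only 16 and 23 reads. It shares 57.0% of its exonic bases with other genes of the count table, among them MRPS12 on the other strand and AC011455.2 on the same strand, and whether reads that matched several genes lowered its count was not tested.

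VARS1 and VARS2, the valyl-tRNA synthetases of the cytosol and of mitochondria, had 0 reads in both libraries. A count of 0 allows up to 3 reads, or 1.21 CPM in the control library and 0.780 CPM in the SRα library. Both genes lie on chromosome 6. Of the 40 protein-coding genes nearest to VARS1 in GENCODE 29 order, 39 also had no read in either library, and of those nearest to VARS2, 35 had none, against 29.8% of all 19263 protein-coding genes. The 0 is thus shared by nearly all of the neighbourhood and is not read here as absence of the messages. Alignments that were not unique stand apart from the gene counts, at 10840225 in the control library and 14433595 in the SRα library, several times the reads of all genes. Whether they include reads from that stretch was not tested.

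The level of each message was compared per kb of exons, since longer messages give more reads. Cytosolic synthetases were among the more abundant messages. Their median was 93.7 CPM per kb in the control library and 98.0 in the SRα library, against 13.8 and 11.7 for mitochondrial ones, or 6.78 and 8.38 times higher. On the mean of both libraries GARS1 was highest, at 153 and 173 CPM per kb, above 98.0% of measured protein-coding genes, and FARSA, SARS1 and EPRS1 followed. In the control library FARSA, at 156, and SARS1, at 155, were above GARS1. The groups overlapped in both directions. IARS2, at 105 and 106 CPM per kb, ranked 9 among all members, and YARS2 and TARS2, at 52.5 and 64.7 and at 53.3 and 59.7, lay above MARS1, LARS1, WARS1, QARS1, HARS1 and CARS1 on the mean of both libraries. CARS1 was the lowest measured cytosolic gene, at 10.7 and 8.83 CPM per kb. Exonic length was taken over all annotated transcripts, 10037 bases for CARS1, and the order depends on it. With the 3123 bases of the basic transcript set, CARS1 had a mean level of 31.3 and was still the lowest measured cytosolic gene. With basic lengths SARS1 was highest at 303, YARS1 next at 259 and GARS1 at 255. IARS2 then ranked 12, TARS2, at 82.6, lay above QARS1, WARS1, HARS1, CARS1 and FARSB, and YARS2, at 59.5, above HARS1 and CARS1 alone among the measured cytosolic genes.

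For 13 amino acids, 1 cytosolic and 1 mitochondrial gene can be set side by side, and 12 of these pairs were measured. The cytosolic message was higher per length in all 12 with either set of exonic lengths, by a median of 3.18 times with all transcripts and 4.58 times with the basic set. The gap was smallest for isoleucine with both, IARS1 being 1.13 times IARS2 with all transcripts. The order after it depended on the length. With all transcripts tyrosine was next, YARS1 being 1.74 times YARS2, and then histidine, at 1.87, whereas with the basic set tyrosine stood at 4.35 and histidine at 2.63, and threonine, at 1.85, and cysteine, at 1.86, came next. The gap was 7.67 times for alanine and 6.86 for asparagine with all transcripts, and 8.90 and 8.38 with the basic set. The gap of 79.7 for serine rests on the few reads of SARS2.

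**Figure D3:**
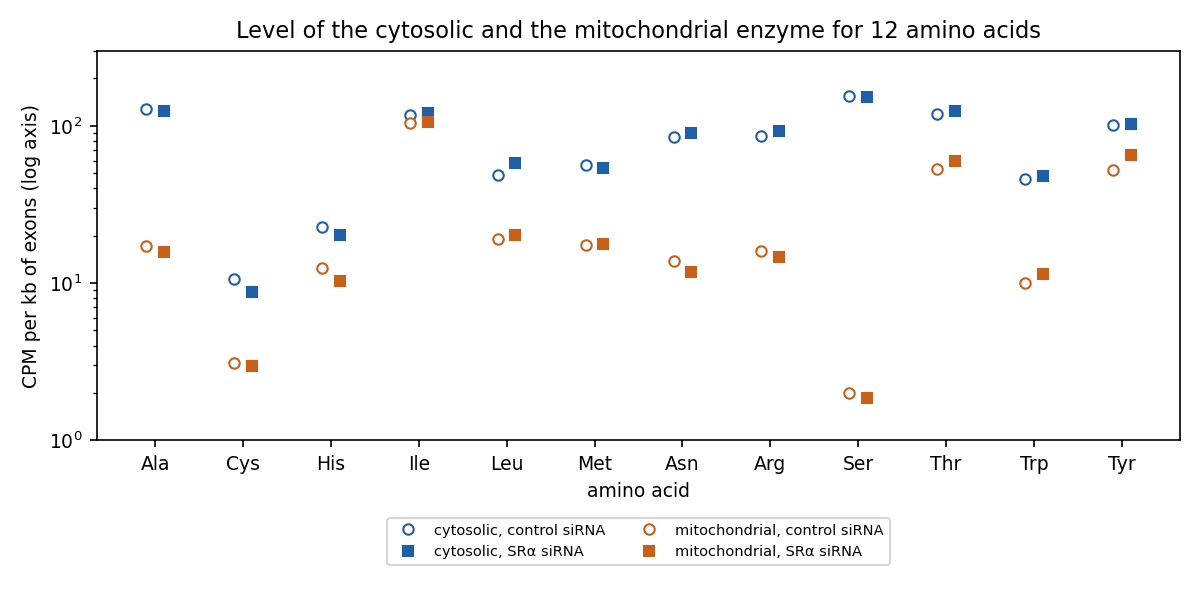
Level in CPM per kb of exons (log y axis) of the cytosolic (blue) and mitochondrial (orange) synthetase for each of 12 amino acids, in the control library (open circles) and the SRα library (filled squares). The cytosolic message is higher in all 12 pairs, and the 2 libraries give nearly the same levels for each gene.

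The pairs showed no common direction. The mitochondrial gene had the higher log2 ratio in 5 pairs and the lower in 7, with a median difference of -0.06. Only the tyrosine pair had an interval that left out 0, with YARS2 above YARS1 by 0.26 (0.04 to 0.49), in 12 pairs compared. YARS1 was at 828 and 849 CPM, nearly level, while YARS2 was higher in the SRα library. For asparagine the mitochondrial gene was lower by the widest margin, a difference of -0.34 (-0.73 to 0.06). For leucine, LARS2 was 0.08 where LARS1 was 0.24, a difference of -0.17 (-0.40 to 0.07).

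HARS1 and HARS2 are neighbours that are transcribed away from each other on chromosome 5, and both had log2 ratios below 0, at -0.16 and -0.27, with intervals that included 0. HARS1 shares 8.38% of its exonic bases with HARS2 and WDR55 on the other strand, and HARS2 shares 15.8% of its own with HARS1 and ZMAT2, including 4.07% with a gene on the same strand, so part of their reads cannot be assigned with certainty. The stretch between their start sites is only 84 bases long. It is printed because the cytosolic and the mitochondrial enzyme for 1 amino acid start from either end of it. It spans chr5:140691371-140691454 on the + strand of GRCh38.p14, from RefSeq, with HARS1 starting just before its left end on the - strand and HARS2 just after its right end. Capitals mark the 2 matches to CCGGAAG, a core that ETS factors bind, on either strand.
HARS1-HARS2: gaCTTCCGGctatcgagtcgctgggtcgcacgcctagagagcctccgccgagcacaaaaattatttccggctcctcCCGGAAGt
A window of 250 bases before to 50 after the start was held for 30 of the 35 members. CCGGAAG occurred on either strand in 9 of 16 cytosolic and 7 of 14 mitochondrial genes, against 12.2% of all 27305 genes with a window and 10.3% of all 35116 windows.

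Cells short of amino acids or with stress in the endoplasmic reticulum make more of the transcription factor ATF4, which raises genes for amino acid synthesis and uptake and many cytosolic synthetases. A list of 13 cytosolic genes was drawn up, from general knowledge, as such targets, and 12 were measured, all of the 13 except VARS1. TGATGCAA is a form of the element that ATF4 binds with C/EBP partners. It was found on either strand in 6 of the 10 genes of that list with a promoter window, in 0 of 6 other cytosolic genes and in 0 of 14 mitochondrial genes, against 1.08% of all genes with a window and 0.866% of windows. Because the list was one of ATF4 targets and the motif was chosen after the sequences had been seen, this contrast is no independent test. The looser TGATGNAA, which includes these, also matched GARS1 and YARS2, and occurred in 4.46% of genes and 3.62% of windows. The 6 stretches are printed from RefSeq, GRCh38.p14, in the direction of each gene, because they show the same element in the synthetases of threonine, isoleucine, cysteine, methionine, alanine and asparagine. Capitals mark the match, which is TTGCATCA, the reverse complement, in all but NARS1. The stretches are at chr5:33440956-33440985 on the + strand for TARS1, chr9:92293692-92293721 on the - strand for IARS1, chr11:3057407-3057436 on the - strand for CARS1, chr12:57488053-57488082 on the + strand for MARS1, chr16:70289675-70289704 on the - strand for AARS1 and chr18:57621804-57621833 on the - strand for NARS1.
TARS1: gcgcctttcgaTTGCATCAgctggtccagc
IARS1: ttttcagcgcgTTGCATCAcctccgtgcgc
CARS1: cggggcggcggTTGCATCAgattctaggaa
MARS1: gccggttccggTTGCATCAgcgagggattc
AARS1: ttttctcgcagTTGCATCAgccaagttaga
NARS1: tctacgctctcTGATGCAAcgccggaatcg
In 5 of them the first base of the match lay within 15 bases of the annotated start, and in AARS1 it lay 187 bases before the start. A match is a description of the sequence, not evidence of binding in these cells.

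The genes that carry the element were near equal in the 2 libraries. Their median log2 ratio was 0.00, with 3 higher and 3 lower, from CARS1 at -0.27 to NARS1 at 0.10. The 10 measured cytosolic genes with a window and without the element had a median of 0.05, with 6 higher and 4 lower. Over the 12 measured cytosolic genes of the ATF4 list the median was 0.05, with 8 higher and 4 lower, and summed reads had a log2 ratio of 0.06 (0.04 to 0.09). The 6 others (FARSA, FARSB, HARS1, KARS1, QARS1 and RARS1) had a median of 0.00 (3 higher, 3 lower) and summed reads at 0.02 (-0.03 to 0.08). The difference of summed reads between these groups was 0.04 (-0.02 to 0.10), within counting error.

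Genes for amino acid synthesis and transport in the ATF4 response lay on the other side of equal levels. Of 13 such genes, all measured, 10 were lower and 3 higher in the SRα library. Their median log2 ratio was -0.08, and summed reads had -0.09 (-0.12 to -0.05). Among genes of at least 50 CPM, 40.1% were lower and summed reads had 0.04, near the 0.06 of the ATF4-list synthetases. The interval was below 0 for 4 of the 13 and above 0 for none, beside 4.89% and 11.7% of genes of at least 50 CPM. The 13 were read more, with a median of 483 reads in the control library against 272. PYCR1, an enzyme of proline synthesis, had the lowest ratio of the list at -0.20 (-0.37 to -0.02), and SLC7A11, the cystine transporter, the highest at 0.18 (-0.08 to 0.44). PYCR1 shares 29.7% of its exonic bases with other genes, including 14.1% on the same strand. ATF4 itself had 388 and 499 reads, a log2 ratio of -0.27 (-0.47 to -0.08). Summed reads of the ATF4-list synthetases were above those of the amino acid genes by 0.15 (0.11 to 0.20) in log2 ratio. This difference does not depend on library scaling, and it was 0.14 without GARS1. The median GC content was close, 50.04% for those synthetases and 49.8% for the amino acid genes. Within the amino acid list, however, the 3 higher genes had GC contents of 35.4% to 43.3%. The 4 with an interval below 0 had 52.3% to 61.8%, and the others ran from 42.3% to 61.3%. Whether GC content contributed to the difference of summed reads was not tested. After removal of the GC trend the medians were 0.04 and -0.04.

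The 7 listed enzymes of the multisynthetase complex, which holds cytosolic synthetases around 3 scaffold proteins, were EPRS1, IARS1, KARS1, LARS1, MARS1, QARS1 and RARS1. Their median log2 ratio was 0.10, with 5 higher and 2 lower, and summed reads had 0.09 (0.06 to 0.13), from 8300 and 13774 reads. The 11 measured cytosolic enzymes outside it had a median of 0.03, with 6 higher and 5 lower, and summed reads at 0.03 (-0.01 to 0.06). The difference, complex minus others, was 0.07 (0.02 to 0.12). GC content moved with it, at a median of 43.6% in the complex and 51.5% outside, and over all genes of at least 50 CPM the ratio was lower at higher GC (Spearman rho -0.28 across 3958 genes, which are not independent replicates). With the GC trend removed the median of the complex was 0.06. The median of the enzymes outside it and the difference of 0.07 were not recomputed, so how much of that difference remains is not known.

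Of the 3 scaffold genes, EEF1E1 alone had an interval above 0. AIMP1 had 265 and 429 reads, for a log2 ratio of 0.06 (-0.17 to 0.29), and AIMP2 had 236 and 394 reads and 0.10 (-0.13 to 0.34). AIMP2 shares 28.9% of its exonic bases with EIF2AK1 on the other strand. EEF1E1 had 22 and 64 reads, or 8.88 and 16.6 CPM, for a log2 ratio of 0.89 (0.19 to 1.67). It shares 18.7% of its exonic bases with EEF1E1-BLOC1S5, a joined transcript listed as its own gene. Its interval left out 0 but rests on few reads.

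Synthetases fall into class I and class II by the fold of the catalytic domain, and EPRS1 carries both. Cytosolic class I genes had a median log2 ratio of 0.04 and class II genes 0.03, with summed reads at 0.05 (0.01 to 0.09) and 0.04 (0.01 to 0.08). Mitochondrial class I genes had a median of 0.04, with 6 of 8 measured higher, and class II genes -0.14, with 5 of 7 lower. The summed reads of mitochondrial class I genes were above those of class II by 0.05 (-0.08 to 0.19), within counting error. TARS2, the most read mitochondrial gene of class II, was on the higher side.

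**Figure D4:**
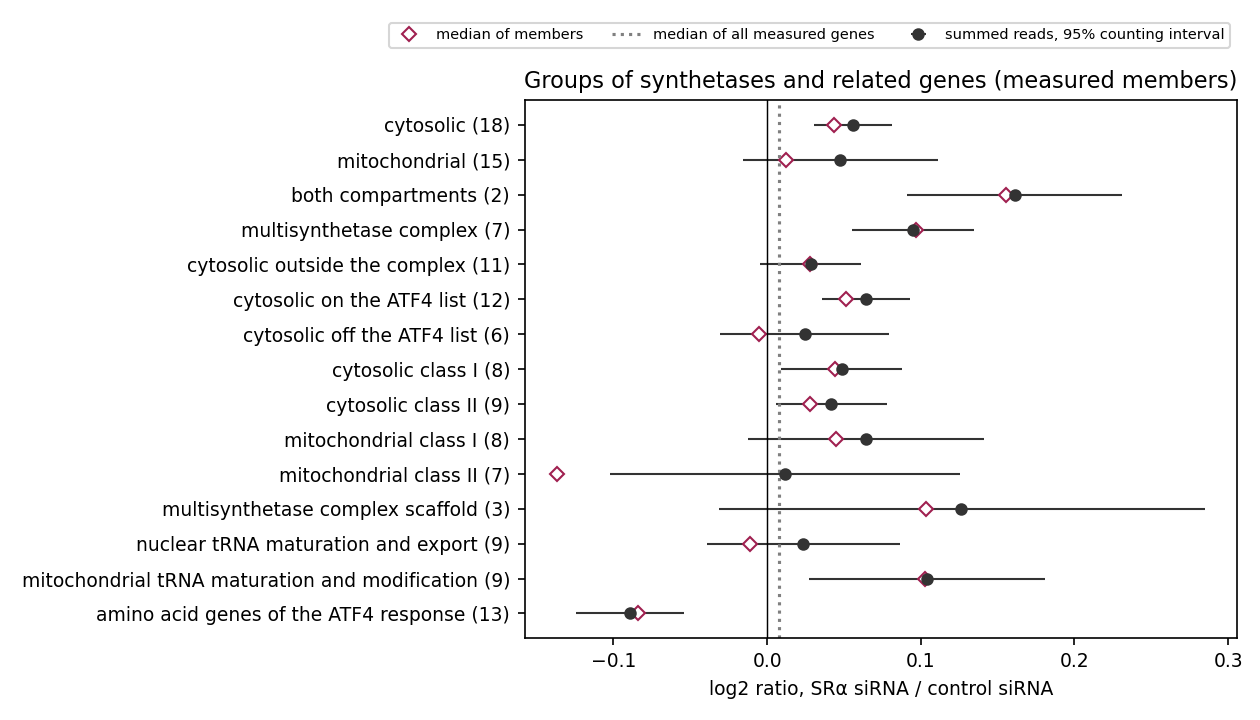
Log2 ratio (SRα siRNA over control siRNA, x axis) of the summed reads of each group, with 95% counting intervals (black), and the median of its measured members (open diamonds); the number of measured members is in brackets and the dotted line is the median of all measured genes. Cytosolic synthetases on the ATF4 list lie at 0.06, near the 0.04 of summed reads of all genes of at least 50 CPM (not drawn), while the amino acid genes of the ATF4 response lie below 0 at -0.09.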

How the data were processed

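TRIzol extraction and the TruSeq Stranded mRNA kit are named in the labels' protocols. The submitters' processing notes name cutadapt, STAR 2.5.2b and the hg19 build. Which program counted the reads, whether it used strand and which gene annotation it read is not given in the sources used here. The deposited values are raw read counts per Ensembl gene ID. The 5 closing summary lines, which name no gene, were kept out of library sizes. They hold 200627 and 331803 reads in no gene, 129676 and 203076 that matched several genes, and 10840225 and 14433595 alignments that were not unique.

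Counts were scaled with edgeR 4.0.16 TMM factors (R 4.3.3) to effective sizes of 2476276 and 3847820. Log2 ratios carry a depth-scaled prior of 0.5 reads, and exact Clopper-Pearson intervals were taken from the 2 counts given their sum. Intervals of differences between genes or groups are exact conditional intervals of the odds ratio. All compare these 2 libraries, not the conditions. All 35 members were matched by symbol in a table that pairs gene IDs with names. Exonic length, GC content and shared exons came from GENCODE 29 by gene ID, so no hg19 coordinates are given; promoter windows came from RefSeq. The genes named are all members, SRPRA, ATF4, the 3 scaffold genes and, of each related list, the highest and lowest ratio at a mean of at least 5 CPM; a gene this selects is not reported here. Members, lists and groups were chosen with earlier results of these data known, and the motifs after the sequences had been seen. The procedure was tested on simulated data. Alternatives were DESeq2 1.42.0 size factors, 3 other scalings, other filters, a prior of 2, thinning, means, the group without GARS1 and KARS1, and removal of a GC trend. Other software was Python 3.11.15 with statsmodels 0.14.6, scipy 1.17.1 and pandas 2.3.3.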

Additional observations from a re-analysis of the deposited data

How the results depend on the processing

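No paired analysis was possible because each group has 1 library. Of 231 values of single members over the 7 alternatives that can move them, all stayed within the counting half-width of the value reported. The scalings move all genes together, by at most 0.04 in size, and the smallest half-width was 0.078. A prior of 2 moved members little. Thinning draws from the same counts and adds less counting error than the half-width holds, so it was unlikely to move a value beyond it. Only removal of the GC trend could readily have given another outcome. The difference of summed reads between compartments cannot move with scaling. It was 0.01 after thinning and 0.0079 without GARS1 and KARS1, where its sign turned; it was not recomputed with the GC trend removed. The difference of medians was -0.0031 after thinning. With library totals, the cytosolic median was 0.0068, the log2 ratio of its summed reads 0.019, the ATF4-list median 0.015, the median of the amino acid genes -0.12, and 2 members lay below 0 (CARS1 and HARS1). With totals that leave out the 10 most-read and the mitochondrially encoded genes, the first 3 were 0.010, 0.023 and 0.018, again with 2 members below 0. The median of all measured genes shifted by at most 0.04 in size under any scaling (-0.04 with totals). After thinning, 0 members were 1.2-fold lower and 0 had an interval below 0. With means, the amino acid genes were at -0.049. With the GC trend removed they were at -0.042, the complex at 0.057, 1 member was 1.2-fold lower and 0 had an interval below 0. The cause of these moves was not tested. EPRS1, GARS1, LARS1 and YARS2 had intervals above 0 in all 6 settings in which intervals were recomputed. The GC trend was not removed from summed reads. Alternatives for the complex, the ATF4 list and the amino acid genes, and the basic lengths, were added after the data had been seen. Depth limits the mitochondrial genes, whose intervals reached a median of 0.36 to either side.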

Other observations

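Genes that act on tRNA before and after charging were mostly within counting error of equal levels. Summed reads of the genes listed here for mitochondrial tRNA maturation were higher in the SRα library. Of 9 measured genes on the list for maturing or modifying mitochondrial tRNA, 7 were higher and 2 lower in the SRα library. Their median log2 ratio was 0.10, and their summed reads had 0.10 (0.03 to 0.18). That interval includes the 0.04 of summed reads of all genes of at least 50 CPM, and it was not recomputed with other scalings. Among genes of at least 50 CPM, 40.1% were lower and 11.7% had an interval above 0. TRMT10C, a subunit of mitochondrial RNase P named here after its values were seen, was the only gene of that list with an interval above 0. It had 0.19 (0.03 to 0.36) from 475 and 844 reads. TRMT5, a tRNA methyltransferase, had the highest ratio of that list at 0.24 (-0.05 to 0.54) from 151 and 278 reads, and PUS1, a pseudouridine synthase, the lowest at -0.21 (-0.48 to 0.06) from 200 and 268. Of 9 genes on the list for nuclear tRNA maturation and export, which need not act in the nucleus alone, 3 were higher and 6 lower, with a median of -0.01. TRNT1, which adds the CCA end of tRNAs, was lowest at -0.08 (-0.58 to 0.43).

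Human mitochondria make glutaminyl-tRNA by amidating glutamate already joined to the tRNA. The genes of that amidotransferase had a median of 0.05, with 2 higher and 1 lower, from GATC at -0.36 (-1.01 to 0.28) to GATB at 0.06 (-0.25 to 0.38). GATC shares 47.6% of its exonic bases with other genes, among them SRSF9 on the other strand. Genes of the selenocysteine route had a median of 0.08 (3 higher, 1 lower), from EEFSEC at -0.01 to SEPSECS at 0.15. EEFSEC and SEPSECS each had at most 54 reads in either library. The 3 measured genes of editing and release had a median of 0.09, all above 0, with AARSD1 at 0.04 from only 5 and 8 reads, PTRH2 at 0.09 (-0.10 to 0.28) and DTD1 at 0.28 (-0.06 to 0.63). EIF2AK4, the kinase GCN2 that binds uncharged tRNA, had 0.13 (-0.21 to 0.48).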
